A study of Mus musculus with 14 samples.

Results

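The genes described here are 10 genes that fat cells are known for, taken by name from the gene table of a mouse ovary study: Adipoq, Lep, Retn, Cfd, Plin1, Plin4, Cidec, Lipe, Fabp4 and Car3. All 10 were found, among 56748 genes in the table. Ovarian RNA of female C57BL/6J wild-type mice was sequenced in 4 groups, namely DSS day 89 (n = 4), control day 89 (n = 3), DSS day 7 (n = 4) and control day 7 (n = 3). DSS, dextran sodium sulfate, is a polymer that inflames the mouse colon. Day 7 stands for the end of the colitis model and day 89 for a rest after it, and the controls were wild-type mice without DSS. The labels used here give no age. They do not say whether libraries are separate animals, so p-values rest on the spread among libraries, some of which may be technical. The genes were meant as a measure of fat attached to the ovary. The data went against that name: Lep, Adipoq, Retn and Cidec, which mark fat cells most closely, were at or near 0 reads, and they are therefore called the 10 listed genes below.

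The mouse ovary lies in a fat pad that is trimmed off at dissection. A white fat cell stores triglyceride in a large lipid droplet coated by perilipins and Cidec, releases fatty acids from it through lipases such as Lipe, carries them bound to Fabp4, and secretes adiponectin, leptin and adipsin. Ovarian steroid-making cells also hold lipid droplets, in which cholesteryl esters are stored for hormone synthesis, so a droplet gene in ovary RNA need not come from fat cells.

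Promoter sequences of 8 of the 10 listed genes were in the RefSeq table of GRCm38.p6. The 250 bases before the annotated start are shown for Lep and Adipoq, which had almost no reads, and for Plin4, which had the most. They are written 5′ to 3′ on the strand of the gene, and capitals mark every match, on either strand, to any of 4 motifs. The motifs were TTGCGCAA, a palindrome bound by C/EBP factors, a relaxed direct repeat for PPAR with its partner RXR, CAAGGNCA, bound by steroidogenic factors, and TATAA, the core of a TATA box. The Lep window (chr6:29059971-29060220, plus strand) held the C/EBP palindrome from base -55 and a TATA core on both strands, in overlapping letters from base -32.
Lep: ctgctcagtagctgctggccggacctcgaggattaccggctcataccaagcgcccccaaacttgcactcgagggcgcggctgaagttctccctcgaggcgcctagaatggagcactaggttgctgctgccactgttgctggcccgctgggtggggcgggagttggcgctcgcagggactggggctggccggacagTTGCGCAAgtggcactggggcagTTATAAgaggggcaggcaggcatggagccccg
The Adipoq window (chr16:23146286-23146535, plus strand) held a steroidogenic factor motif on the reverse strand, from base -25.
Adipoq: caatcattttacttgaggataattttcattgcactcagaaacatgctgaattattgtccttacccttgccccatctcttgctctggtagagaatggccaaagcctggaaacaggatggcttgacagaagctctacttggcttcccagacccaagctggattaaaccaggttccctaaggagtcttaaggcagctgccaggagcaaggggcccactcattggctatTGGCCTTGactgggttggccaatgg
The Plin4 window (chr17:56109783-56110032, minus strand) held a TATA core from base -32.
Plin4: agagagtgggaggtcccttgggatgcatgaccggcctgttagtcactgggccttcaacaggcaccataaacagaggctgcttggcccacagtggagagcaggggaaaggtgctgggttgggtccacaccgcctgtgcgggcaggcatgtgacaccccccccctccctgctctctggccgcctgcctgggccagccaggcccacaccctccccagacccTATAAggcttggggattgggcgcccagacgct
Among 32851 promoter windows of the same length, 0.164% held the C/EBP palindrome, 5.53% the steroidogenic factor motif and 22.8% the TATA core. The relaxed PPAR element was in 0.338% of them and in no window of the listed genes. A window of Lipe, not shown here, also held the steroidogenic factor motif, from base -236. These matches are letters in a window, not measured binding sites.

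Recovered depth ran from 15256018 to 18505144 reads per library. The deposited values are FPKM, fragments per kilobase adjusted for depth, so levels of different genes can be compared per deposited length. The read total implied by the FPKM scale ran from 0.852 times the recovered reads (DSS day 7 replicate 75) to 1.07 times (DSS day 7 replicate 81). A lower factor raises the FPKM that a given count of reads yields. Mitochondrial transcripts took 9.96% to 14.2% of the reads of DSS day 7 replicate 75 and control day 7 replicates 10 and 53, and 0.479% to 4.04% in the other 11 libraries. The labels name the tissue as ovary, although their extract protocol speaks of retinas, and the luteal marker Cyp11a1 averaged 926 FPKM over all 14 libraries.

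The secreted products of fat cells were barely present. Lep, the appetite-regulating hormone leptin, had 1 read in DSS day 89 replicate R89 and 0 reads in the other 13 libraries. A count of 0 allowed a Lep level of up to 0.047 to 0.0664 FPKM, depending on the library (3 reads, counting error only). Adipoq encodes adiponectin, among the most abundant products of fat cells. It had 8, 7, 4 and 3 reads in DSS day 89 (0.367, 0.291, 0.177 and 0.123 FPKM), against 0, 4 and 1 reads in control day 89 (0, 0.163 and 0.0442 FPKM). At day 7 it had 8, 0, 0 and 0 reads in DSS (0.430, 0, 0 and 0 FPKM) and 0, 0 and 3 reads in control (0, 0 and 0.156 FPKM). The groups overlapped at both days, and the exact 95% Poisson interval of the highest value, 0.430 FPKM, was 0.186 to 0.847 FPKM. For this and the values that follow, fewer cells of a type and less RNA per cell cannot be told apart in bulk RNA. Retn, the mouse fat cell hormone resistin, had 0.0803, 0.0364, 0.194 and 0.0717 FPKM in DSS day 89, against 0.242, 0.143 and 0.116 FPKM in control day 89. In DSS day 7 it had 0.282, 0, 0 and 0 FPKM, against 0.0843, 0 and 0.182 FPKM in control day 7. No library exceeded 7 Retn reads.

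Cfd, the complement protease adipsin that fat cells secrete, was low but stood out in DSS day 89. It had 0.688, 1.56, 2.59 and 1.84 FPKM there (10, 25, 39 and 30 reads), against 0.178, 0.857 and 0.132 FPKM in control day 89 (3, 14 and 2 reads). Cfd in DSS day 7 was at 1.61, 0, 0.229 and 0 FPKM, against 0, 0.469 and 0.311 FPKM in control day 7. The lowest DSS day 89 library lay below control day 89 replicate R124 and below DSS day 7 replicate 75, so these groups overlapped. Cfd averaged 1.67 ± 0.786 FPKM in DSS day 89 (SD, n = 4), 0.389 ± 0.406 in control day 89 (n = 3), 0.460 ± 0.775 in DSS day 7 (n = 4) and 0.260 ± 0.239 in control day 7 (n = 3).

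**Figure D1:**
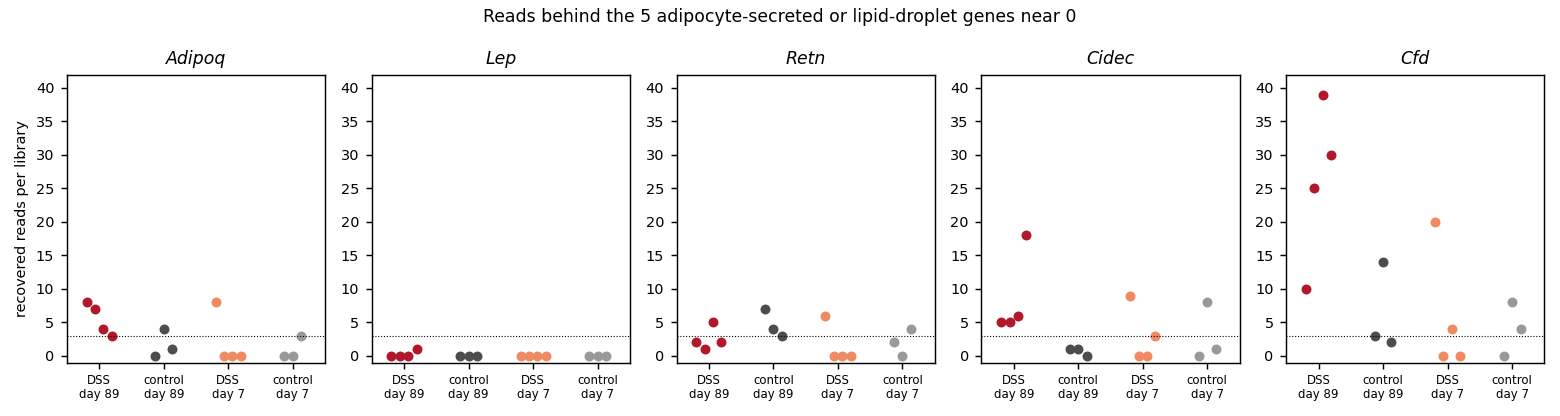
Reads recovered in each library for Adipoq, Lep, Retn, Cidec and Cfd, 1 dot per library, by group; the dotted line marks 3 reads. Lep has 1 read in all, Adipoq stays at or below 8 reads, and Cfd reaches 39 reads in DSS day 89.

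The droplet coat genes ranged in level from near 0 for Cidec to high for Plin4. Cidec, which fuses small droplets into a large one in white fat cells, had 0.171, 0.155, 0.198 and 0.549 FPKM in DSS day 89 (5, 5, 6 and 18 reads). In control day 89 it had 0.0294, 0.0304 and 0 FPKM (1, 1 and 0 reads). Every DSS day 89 library lay above every control day 89 library. Among tested genes, 4.04% were higher in DSS day 89 with no overlap, and Cidec itself was too low to be tested. A limma fit with no filter gave Cidec a difference of 0.30 on the log2(FPKM + 1) scale (SE 0.12, adjusted p = 0.955). At day 7 Cidec had 0.360, 0, 0 and 0.0849 FPKM in DSS, against 0, 0.233 and 0.0387 FPKM in control, and these groups overlapped.

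Plin4, a droplet coat protein of fat cells and muscle, was the highest of the 10 listed genes per length, at rank 1044 of 56748 by mean FPKM. It had 114, 29.9, 94.2 and 9.70 FPKM in DSS day 89, against 18.1, 106 and 89.9 FPKM in control day 89. Plin4 in DSS day 7 was at 64.3, 13.8, 6.12 and 5.53 FPKM, against 16.9, 55.0 and 52.1 FPKM in control day 7. High and low libraries stood side by side within each group, and no pair of groups was separate. The highest library was 20.6 times the lowest. Plin1, the droplet gatekeeper of white fat cells that steroid-making cells also carry, was lower and steadier. It had 3.001, 3.60, 5.19 and 6.90 FPKM in DSS day 89, against 6.62, 3.35 and 4.40 FPKM in control day 89. In DSS day 7 it had 3.24, 3.23, 2.73 and 3.69 FPKM, against 2.39, 4.36 and 2.61 FPKM in control day 7. The DSS and control libraries of each day overlapped in Plin1.

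Lipe, hormone-sensitive lipase, which cleaves diglycerides in fat and cholesteryl esters in steroid-making cells, varied least. It had 7.70, 8.18, 6.91 and 5.68 FPKM in DSS day 89, against 6.68, 6.51 and 7.59 FPKM in control day 89. Lipe in DSS day 7 was at 8.69, 5.76, 6.89 and 6.52 FPKM, against 10.3, 8.72 and 8.02 FPKM in control day 7. All 14 libraries lay within 1.81-fold, with a coefficient of variation of 17.1%. The 3 control day 89 libraries lay below the 3 control day 7 libraries, as did 22.2% of tested genes.

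Fabp4 carries fatty acids in fat cells, and capillary endothelium and macrophages make it too. It had 1.58, 2.39, 1.31 and 1.11 FPKM in DSS day 89, against 1.67, 2.25 and 0.830 FPKM in control day 89. In DSS day 7 it had 2.02, 0.921, 1.06 and 1.21 FPKM, against 1.35, 0.807 and 0.831 FPKM in control day 7. All 4 groups overlapped. The deposited length of Fabp4, 4489 bases, is the whole span of its gene, against 896 bases for its coding transcript in GENCODE, a ratio of 5.01 that lowers its FPKM beside the other genes. Car3, a carbonic anhydrase abundant in fat cells and slow muscle, had 1.95, 7.36, 2.91 and 1.74 FPKM in DSS day 89, against 5.44, 2.30 and 1.09 FPKM in control day 89. Car3 in DSS day 7 was at 0.389, 0.250, 0.977 and 0.495 FPKM, against 1.37, 0.491 and 1.63 FPKM in control day 7. Every DSS day 89 library lay above every DSS day 7 library, while the control libraries of both days overlapped.

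**Figure D2:**
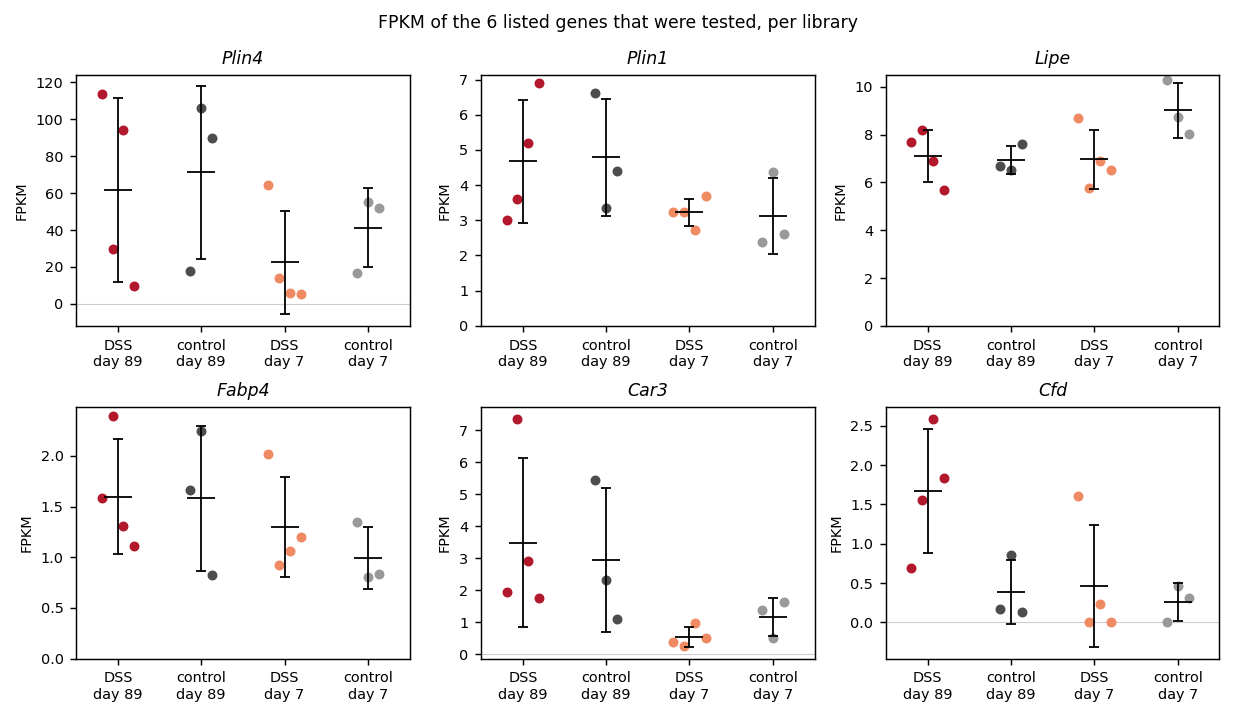
FPKM of the 6 tested genes in each library, 1 dot per library, with the mean and SD of each group. Plin4 spreads from 5.53 to 114 FPKM with high and low libraries in the same group, Lipe stays between 5.68 and 10.3 FPKM, and the 4 DSS day 89 libraries of Car3 sit above the 4 DSS day 7 libraries.

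By mean FPKM over all 14 libraries the order was Plin4, Lipe, Plin1, Car3, Fabp4, Cfd, Cidec, Adipoq, Retn and Lep, from rank 1044 to rank 35522. Of the 14 Lipe values, 6 lay below the highest Plin1 value of 6.90 FPKM, and in 1 library, DSS day 89 replicate R89, Plin1 exceeded Lipe. The order below Lipe depends on gene length. The deposited length was 1.65 times the longest coding transcript for Plin1, 1.585 times for Lipe, 1.706 times for Car3 and 5.01 times for Fabp4. Per length of that transcript the means were 11.8 FPKM for Lipe, 6.92 for Fabp4, 6.52 for Plin1 and 3.46 for Car3. Fabp4 then stood above Plin1 and Car3, and Retn above Adipoq. This holds only if all counted reads lie in that transcript, which was not tested. By the deposited length Car3 and Fabp4 overlapped widely, and so did Cidec, Adipoq and Retn. Plin4 alone had 70105 reads over all libraries. Adipoq, Lep, Retn, Cidec and Cfd together had 291. That set of 5 genes was chosen after their values were seen and is described without a test. Its summed reads were 25, 38, 54 and 54 in DSS day 89, 11, 23 and 6 in control day 89, 43, 0, 4 and 3 in DSS day 7, and 2, 16 and 12 in control day 7. Each DSS day 89 library was above each control day 89 library, also after division by recovered reads. Among single tested genes, 4.04% were higher in DSS day 89 with no overlap. Cfd, which the DSS day 89 libraries brought into the test, had 104 of the summed reads in that group and 19 in control day 89. Retn went the other way, with means of 0.0956 FPKM in DSS day 89 and 0.167 FPKM in control day 89. DSS day 7 replicate 75 stood apart from the other libraries of its group.

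Of the 10 genes, 6 were tested, since a gene had to reach 0.5 FPKM in at least 3 libraries. Cfd met this in 6 libraries, of which 4 were the DSS day 89 libraries, and with that group left out it would not have been tested. Its differences that involve DSS day 89 are therefore given as a description, and counts below are over the other 5 genes, Plin1, Plin4, Fabp4, Lipe and Car3. Differences are limma estimates on the log2(FPKM + 1) scale, which understates those of low genes.

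At day 7, DSS against control, none of the 5 genes passed the adjusted threshold of 0.05 in limma, and 0.0333% of all tested genes did. At an unadjusted p under 0.05 there was 1 of the 5, Lipe, and 16% of all tested genes, and limma-voom on recovered reads called 0 of the 5. Plin4 averaged 22.4 ± 28.2 FPKM in DSS day 7 and 41.3 ± 21.2 FPKM in control day 7 (SD, n = 4 and 3), a difference of -1.37 (SE 0.93, adjusted p = 0.492). Without single libraries that Plin4 difference ran from -2.09, without DSS day 7 replicate 75 (limma adjusted p = 0.156), to -0.98, with adjusted p up to 0.733. Lipe averaged 6.96 ± 1.24 FPKM in DSS day 7 and 9.01 ± 1.16 FPKM in control day 7 (n = 4 and 3), a difference of -0.34 (SE 0.15, adjusted p = 0.299). The other differences were -0.48 for Car3 (SE 0.40), 0.19 for Fabp4 (SE 0.23), 0.11 for Cfd (SE 0.34) and 0.06 for Plin1 (SE 0.25). The median over the 5 genes was -0.34, beside 0.0041 over all tested genes.

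At day 89, DSS against control, none of the 5 genes passed in limma either, beside 0.00555% of all tested genes. At an unadjusted p under 0.05 there were 0 of the 5 and 4.58% of all tested genes, and limma-voom called 0 of the 5. The Plin4 difference was -0.39 (SE 0.93), with means of 61.9 ± 49.9 FPKM in DSS day 89 and 71.3 ± 46.8 FPKM in control day 89 (SD, n = 4 and 3). Without single libraries that Plin4 difference ran from -1.18 to 0.29. Car3 differed by 0.19 (SE 0.40), Plin1 by -0.04, Lipe by 0.03 and Fabp4 by 0.02. The median over the 5 was 0.02, beside 0.0043 over all tested genes. The Cfd difference, which the filter favours, was 0.93 (SE 0.34) and was not called either (limma adjusted p = 0.924).

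Between the days, Car3 was higher at day 89 than at day 7 in DSS ovaries, 1 of the 5 genes, where 10.7% of all tested genes were called higher. At an unadjusted p under 0.05 in limma there was 1 of the 5, Car3, and 36.6% of all tested genes. The rest after DSS cannot be told apart here from other differences between the days, such as age or time of collection. Car3 averaged 3.49 ± 2.63 FPKM in DSS day 89 and 0.528 ± 0.316 FPKM in DSS day 7 (SD, n = 4 each), a difference of 1.42 (SE 0.37, limma adjusted p = 0.0183). No overlap in the higher direction, as for Car3, was found for 12.2% of tested genes. Without the 3 libraries of high mitochondrial share the Car3 difference was 1.38 (adjusted p = 0.0502). Over the same days markers of the ovarian surface and mesothelium and of oocytes went the other way, with 6 of 9 and 10 of 10 tested markers called lower, where 10.7% of all tested genes were called lower. The mesothelial and surface markers summed to 31.0 to 61.0 FPKM in DSS day 89 and 48.3 to 105 FPKM in DSS day 7, and the oocyte markers to 57.5 to 171 FPKM in DSS day 89 and 292 to 467 FPKM in DSS day 7. In control, 7 of the 9 and 4 of the 10 were called lower at day 89. Their part in the Car3 values was not tested. Plin4 differed by 1.58 between the days in DSS (SE 0.86, adjusted p = 0.199) and Plin1 by 0.38. The median over the 5 genes was 0.38, beside 0.0045 over all tested genes. The Cfd difference between the days in DSS was 0.94 (SE 0.31). Its adjusted p in limma was 0.0443, for a gene that the DSS day 89 libraries brought into the test, and lay above the threshold when any of 9 single libraries was left out, up to 0.129 without DSS day 89 replicate R78.

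In control ovaries none of the 5 genes was called between the days by limma, beside 31.8% of all tested genes. Of the 5, 0 had an unadjusted p under 0.05, while 43.3% of all tested genes did, and limma-voom called 0 of the 5. Car3 averaged 2.94 ± 2.24 FPKM in control day 89 and 1.16 ± 0.596 FPKM in control day 7 (SD, n = 3 each), a difference of 0.75 (SE 0.43, adjusted p = 0.196). Plin1 differed by 0.48 (SE 0.27, adjusted p = 0.179) and Lipe by -0.33 (SE 0.16, adjusted p = 0.133). The test of whether the DSS effect differed between the days called none of the 5 and 0.0% of all tested genes, with 8.45% of all tested genes and 0 of the 5 at an unadjusted p under 0.05. Limma-voom called 0 of the 5 too. The test gave 0.67 for Car3 (SE 0.57, adjusted p = 0.746), so the day difference of Car3 was not shown to depend on DSS. For Cfd, which the DSS day 89 libraries brought into the test, the value was 0.82 (SE 0.47). It was not called either (limma adjusted p = 0.657). Each DSS comparison shares a group with each day comparison.

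**Figure D3:**
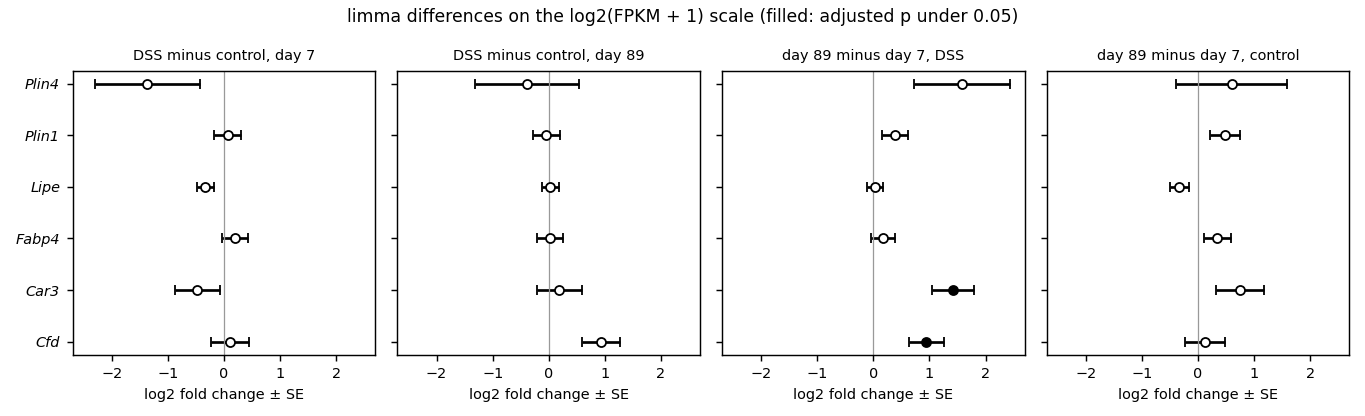
Limma difference on the log2(FPKM + 1) scale with its SE for each of the 6 tested genes in each comparison; filled symbols have an adjusted p under 0.05. Only Car3 (1.42) and Cfd (0.94) in day 89 against day 7 of DSS are filled, Cfd having passed the filter through DSS day 89, and the Plin4 bars are the widest.

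Further fat cell markers ranged from near 0 to high. Of 28 other adipocyte markers in the table, 19 reached 1 FPKM in some library and 9 never did. The highest single values were 104 FPKM for Mrap, a cofactor of the ACTH receptor, 75.6 for Nnat, 59.3 for the transcription factor Cebpa, 37.3 for Aoc3 and 35.9 for the triglyceride lipase Pnpla2. At the low end the beta-3 adrenergic receptor Adrb3 reached at most 0.170 FPKM, the glyceride synthesis gene Pck1 0.182 FPKM, and the fat cell genes Adig and Trarg1 0.329 and 0.315 FPKM. These markers were chosen after their values were seen. Of 12 brown and beige fat genes, 9 never reached 1 FPKM, and Ucp1, the uncoupling protein of brown fat, reached at most 0.198 FPKM. Pparg, the master regulator of fat cells that granulosa cells also use, averaged 13.7 ± 4.19 FPKM in DSS day 89, 9.59 ± 2.76 FPKM in control day 89, 6.88 ± 1.55 FPKM in DSS day 7 and 8.25 ± 1.91 FPKM in control day 7 (SD, n = 4, 3, 4 and 3).

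Of the 19 other adipocyte markers tested, none was called in either DSS comparison by limma, with 4 at day 7 and 1 at day 89 at an unadjusted p under 0.05. Limma-voom called 0 genes of the whole table in both DSS comparisons, and so none of this or the lists below. The largest differences at day 7 were 1.06 for Mest, 1.00 for the fatty acid transporter Cd36, -0.94 for the retinol carrier Rbp4 and -0.90 for Mrap. Between the days in DSS, 2 of the 19 rose and 1 fell, where 10.7% of all tested genes were called in each direction. There Pparg (0.87, adjusted p = 0.0210) and Cd36 (0.89, adjusted p = 0.0448) rose and the apolipoprotein Apoc1 fell (-1.27, adjusted p = 0.0201). In control 2 rose and 4 fell, where 16.1% of all tested genes were called higher and 15.7% lower. There Cd36 and Pnpla2 rose, by 1.79 and 0.89, and Nnat, Tmem120a, Apoc1 and Rbp4 fell. Of 4 brown and beige genes tested, the respiratory subunit gene Cox7a1 was lower at day 89 in control (-1.41, adjusted p = 0.00996). No gene was called in the DSS comparisons, with 1 at day 7 and 0 at day 89 at an unadjusted p under 0.05. The 1 at day 7 was Cox7a1, with a difference of -1.48 (limma adjusted p = 0.0885).

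Fatty acid and triglyceride synthesis had 16 of 17 genes tested, and none was called in either DSS comparison, with 5 at day 7 and 0 at day 89 at an unadjusted p under 0.05. The largest differences at day 7 were -1.83 for the elongase Elovl6 (adjusted p = 0.0872), -1.08 for Me1, -0.95 for the acyltransferase Gpam and -0.88 for the desaturase Scd1. The median at day 7 was -0.28 over the list, beside 0.0041 over all tested genes. Between the days in DSS, 7 of the 16 rose and none fell, where 10.7% of all tested genes were called higher. Scd1 averaged 17.5 ± 11.9 FPKM in DSS day 89 and 2.07 ± 0.134 FPKM in DSS day 7 (SD, n = 4 each), a difference of 2.33. Elovl6 averaged 25.6 ± 10.02 FPKM in DSS day 89 and 5.14 ± 3.93 FPKM in DSS day 7 (n = 4 each), a difference of 2.19. Fatty acid synthase, Fasn, rose by 1.22 in DSS and by 1.14 in control. In control, 4 of the 16 rose and none fell, beside 16.1% of all tested genes called higher, namely Acly, Fasn, Scd1 and Lpin1.

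Lipolysis and fatty acid handling had 16 of 18 genes tested, and none was called in either DSS comparison, with 4 at day 7 and 2 at day 89 at an unadjusted p under 0.05. Angptl4, a secreted inhibitor of lipoprotein lipase, differed by 0.58 at day 7 (adjusted p = 0.117) and by -0.76 at day 89. The fatty acid binding protein Fabp5 differed by 0.65 at day 7 and by 0.54 at day 89, and lipoprotein lipase, Lpl, by 0.58 at day 7. Between the days, 3 of the 16 rose in DSS and 6 in control, and none fell. Of all tested genes 10.7% were called higher in DSS and 16.1% in control. The Abhd5 cofactor of triglyceride lipase rose in both, by 0.47 in DSS and by 0.69 in control.

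Luteal and other steroid-making cells express droplet genes too, and their markers were compared with Plin4. The 12 steroidogenic and luteal markers summed to between 3840 and 6185 FPKM in DSS day 89, between 4747 and 5412 in control day 89, between 2176 and 3199 in DSS day 7 and between 2641 and 3744 in control day 7. None of the 12 was at 0. Between the days in DSS, 8 of the 12 rose, where 10.7% of all tested genes did, among them Cyp11a1, the first enzyme of steroid synthesis, by 1.60 (adjusted p = 0.0164), and Star, the cholesterol carrier, by 2.27 (adjusted p = 0.00319). In control 0 of the 12 were called between the days by limma (3 at an unadjusted p under 0.05), where 31.8% of all tested genes were. At day 7, DSS against control, none of the 12 was called (7 at an unadjusted p under 0.05), with a median of -0.89, beside 0.0041 over all tested genes. Within DSS day 89 the lowest sum and the lowest Plin4 value were both in replicate R89, while the highest sum was in replicate R38, whose Plin4 value of 29.9 FPKM was the second lowest. Within control day 89 the lowest sum and the lowest Plin4 value were both in replicate R123, and within DSS day 7 both maxima were in replicate 75. Within control day 7 replicate 10 had the highest sum and the lowest Plin4 value. The part of these cells in the Plin4 values was not tested.

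Markers of other cells that make the listed genes were compared with them. The 14 macrophage markers summed to 122 to 192 FPKM in DSS day 89, 91.6 to 149 in control day 89, 79.7 to 114 in DSS day 7 and 55.7 to 62.4 in control day 7. Of 12 tested, none was called in either DSS comparison. At an unadjusted p under 0.05 there were 6 at day 7 and 1 at day 89, beside 16% and 4.58% of all tested genes. The median was 0.56 at day 7 and 0.07 at day 89, beside 0.0041 and 0.0043 over all tested genes. The largest differences at day 7 were 1.66 for Cd68 and 1.33 for Ccl2. Between the days, Cd68, Gpnmb and Cd36 were called higher at day 89 in DSS, beside 10.7% of all tested genes. In control, Cd68, Gpnmb, Cd36 and Adgre1 were, beside 16.1%. Mean Cfd was also highest in DSS day 89, although replicate R78, with the most Cfd there, had the lowest macrophage sum of that group. The part of macrophages in the Cfd values was not tested. The 12 skeletal muscle markers summed to 3.96 to 11.0 FPKM in DSS day 89, 4.76 to 5.44 in control day 89, 5.60 to 12.2 in DSS day 7 and 4.32 to 9.99 in control day 7. None of the 5 tested muscle markers was called between the days in DSS (0 at an unadjusted p under 0.05). Of the 12, 7 never reached 1 FPKM, among them the muscle enzyme gene Ckm, at most 0.0871 FPKM. Others were higher, with up to 4.24 FPKM for Myl1 and 3.70 FPKM for Tnnt3. The highest muscle sum of DSS day 89, 11.0 FPKM, was in replicate R38, which also had the most Car3, 7.36 FPKM, and the other 3 libraries summed to 3.96 to 5.61 FPKM. The part of muscle in the Car3 values was not tested. The 12 endothelial markers summed to 160 to 209 FPKM in DSS day 89, 197 to 233 in control day 89, 165 to 309 in DSS day 7 and 208 to 263 in control day 7. The 14 markers of fat stroma and fat cell precursors summed to 168 to 215 FPKM in DSS day 89, 148 to 242 in control day 89, 113 to 149 in DSS day 7 and 117 to 136 in control day 7. Of 13 tested, Pdgfra, Cd34 and Zfp423 were called higher at day 89 in DSS, and Pdgfra, F3, Zfp423 and Icam1 in control, against the same shares of all tested genes.

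The tested genes did not vary as a unit across libraries. Over the 15 pairs of the 6 genes, Pearson's r of log2(FPKM + 1) across the 14 libraries ran from -0.489 for Plin1 with Lipe to 0.564 for Fabp4 with Car3, with a median of 0.223. Only 1 pair exceeded 0.5. These are descriptions, since libraries share group, depth and composition. The mean of the listed genes followed Plin4 (r = 0.785) and Cfd (0.764), both part of that mean, more than Plin1 (0.287) or Lipe (0.198). Of 12595 other genes searched, the 10 most like that mean were Cyp11a1 (r = 0.889), Zfc3h1, Abca7, Fads3, Nrd1, Malat1, Cptp, Stat5a, Zfp809 and Srxn1 (r = 0.841 for the last), over 14 libraries. Cyp11a1 ran from 805 to 1436 FPKM in DSS day 89, 1057 to 1604 in control day 89, 211 to 1019 in DSS day 7 and 786 to 899 in control day 7. Plin4 taken alone, chosen after its values were seen, was most like Plch2 (r = 0.922), Fam126a (0.914), the kinase Sgk1 (0.913) and Idh1 (0.911), and also like the prostaglandin F receptor gene Ptgfr (0.909) of luteal cells.

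**Figure D4:**
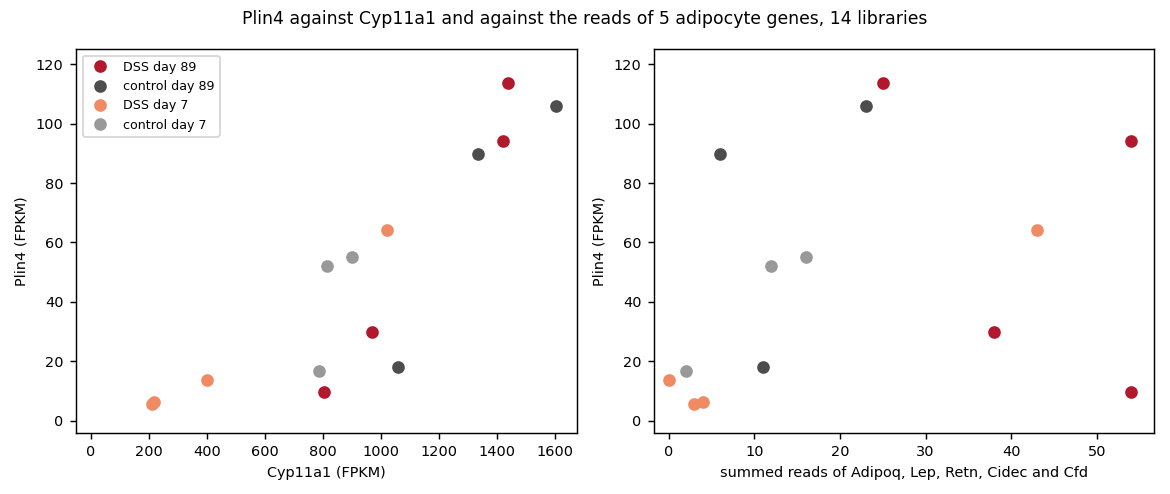
Plin4 FPKM of each library against Cyp11a1 FPKM and against the summed reads of Adipoq, Lep, Retn, Cidec and Cfd, 1 dot per library, colored by group. The 4 libraries with the most Plin4 are the 4 with the most Cyp11a1, a gene picked for its likeness to a mean that includes Plin4. The library with the most Plin4 also has the most summed reads in DSS day 7 (replicate 75), control day 7 (replicate 51) and control day 89 (replicate R124). In DSS day 89 the library with the most Plin4, replicate R29, has the fewest summed reads of its group.

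Positions of the genes on GRCm38, from GENCODE M21, were chromosome 16 from 23146536 to 23158028 for Adipoq, chromosome 17 from 56100591 to 56109803 for Plin4, chromosome 3 from 14863512 to 14872523 for Car3 and chromosome 10 from 79890853 to 79892655 for Cfd. In the deposited table Plin4 overlaps Hdgfl2, Lipe overlaps 4732471J01Rik and Car3 overlaps ENSMUSG00000120173, each on the opposite strand. Whether the counting used strand is not stated in these sources. If it did not, reads in a stretch shared by such a gene and its overlapping partner cannot be told apart. The length of the shared stretches was not measured.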

How the data were processed

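The authors deposited FPKM values, 1 column per library, and a length per gene, per the file headers. Per the labels' protocols, TruSeq libraries were made from total RNA, and the submitters' processing notes name HISAT2 2.0.5 and GRCm38. Of the counter, the annotation release and the use of strand nothing is stated in those sources. FPKM multiplied by length fell on whole multiples of a step in every library (within 0.01 of a step, for values up to 300 steps), which gave the reads per gene; intervals and floors of 3 reads cover counting error only. Genes reaching 0.5 FPKM in at least 3 libraries (18006) were tested as log2(FPKM + 1) with limma 3.58.1 (limma-trend) in R 4.3.3, fitting 1 mean per group to all 14 libraries, with Benjamini-Hochberg adjustment over all tested genes and a threshold of 0.05. The fit was tested on simulated data, with changes planted only in DSS day 7 and only in genes with many reads. That simulation does not cover genes near 0 reads.

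The members and gene lists were chosen with earlier results of these data known. The rule for named genes took all 10 listed genes and the 10 genes most correlated with their mean. Those needed a mean of at least 1 FPKM in a group, leaving out predicted and unnamed genes. From each list it took the called genes where 5 or fewer, and up to 4 with the largest DSS differences. The text does not follow this for every list: endothelium, for example, is given as sums only, and fat stroma without DSS differences. Some lists share genes: Cd36, for example, stands in the macrophage list and in both fat lists. The planned quasi-likelihood count test on recovered reads was not run, because the table holds FPKM; limma-voom, added after seeing the data, took its place. Deposited gene positions differ from GRCm38, so positions come from GENCODE M21, matched by gene ID, and promoters from RefSeq.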

Additional observations from a re-analysis of the deposited data

Results flagged for a closer look

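The highest and lowest library were compared with the others of their group in 19 gene and group pairs (groups of 4 libraries), and 6 pairs had a library far from the rest. Chance gives about 1 in 20 for continuous values, but not for counts near 0: for Adipoq, Retn and Lep, 3 of the 6, the other 3 libraries were at 0 reads, and any read then stands apart. DSS day 7 replicate 75 was the high library in 4 of them, with 0.43 FPKM of Adipoq, 64.3 FPKM of Plin4, 1.61 FPKM of Cfd and 0.282 FPKM of Retn. In the same library mitochondrial transcripts took 14.2% of reads, and 10 neutrophil markers summed to 132 FPKM, against 12.4 to 19.7 FPKM in the other DSS day 7 libraries. Endothelial markers summed to 309 FPKM there, against 165 to 176 in the others, granulosa cell markers to 847 FPKM, against 2292 to 3601, and mesothelial and surface markers to 48.3 FPKM, against 91.7 to 105. Their part in these values was not tested. DSS day 89 replicate R89 was the high library in the other two, with 0.0169 FPKM of Lep, which is 1 read, and 0.549 FPKM of Cidec.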

How the results depend on the processing

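Over 23 alternative settings, 14 of which left out 1 library each, 679 values of the tested genes were recomputed: 634 kept their direction and side of the threshold, 13 kept their direction but lost the threshold, and 32 changed sign, none of them a called value. The count of listed genes called stayed at 0 in both DSS comparisons, in control between the days and for the difference of DSS effects. In DSS between the days it was 2, counting Cfd, which the DSS day 89 libraries brought into the test, and became 1 with a pseudocount of 0.1, with no filter, with a filter at 2 FPKM, with the compared libraries alone and without the 3 libraries of high mitochondrial share, and ran from 1 to 2 when single libraries were left out. Car3 was called in 22 of 23 alternatives and Cfd in 10 of 22, with adjusted p of 0.0513 at a pseudocount of 0.1, 0.0985 with no filter and 0.0785 with the compared libraries alone. The 9 single libraries whose removal ended the Cfd call were control day 7 replicate 53, DSS day 7 replicates 80, 81 and 82, control day 89 replicates R123 and R126, and DSS day 89 replicates R38, R78 and R89, with adjusted p from 0.0527 to 0.129. Sign changes at day 7, DSS against control, were -0.0626 (pseudocount 0.1), -0.53 (limma-voom) and -0.46 (without the high-mitochondrial libraries) for Cfd, and, without those libraries, -0.35 for Plin1 and 0.0525 for Car3. Without those libraries the control day difference of Cfd was -0.12 and the difference of DSS effects of Plin1 was 0.31. Leaving them out keeps only replicate 51 in control day 7, so comparisons with that group then rest on 1 library there. Counts of genes called over the whole table are not given for those comparisons. Leaving out single libraries gave, at day 7, -0.0639 to 0.27 for Plin1 and -0.22 to 0.25 for Cfd; at day 89, -0.23 to 0.18 for Plin1, -1.18 to 0.29 for Plin4, -0.0358 to 0.12 for Lipe, -0.20 to 0.21 for Fabp4 and -0.19 to 0.62 for Car3. Between the days it gave -0.11 to 0.25 for Cfd in control and -0.0449 to 0.13 for Lipe in DSS, and for the difference of DSS effects -0.31 to 0.12 for Plin1 and -0.40 to 0.0170 for Fabp4. The cause was not tested. Over the whole table, 6 genes were called at day 7 for DSS, against 0 to 1221 without single libraries. The count was 2 with a pseudocount of 0.1, 1 with a filter at 2 FPKM and 0 with the compared libraries alone. It was 1 with own read totals, 3 with TMM factors, 3 with robust empirical Bayes and 0 with limma-voom. The share of higher calls there was 16.7%, 100% with own totals and 33.3% with TMM. At day 89, 1 gene was called, against 5 with no filter, 0 to 2 without single libraries, and 0 with a pseudocount of 0.1, a filter at 2 FPKM, the compared libraries alone, limma-voom or without the high-mitochondrial libraries. Between the days 5732 genes were called in control, against 3695 to 6463 without single libraries, and 3860 in DSS, against 2034 to 4930. For the difference of DSS effects 0 genes were called, against 2 with no filter and 0 to 41 without single libraries. No scaling moved the median of all tested genes by over 0.1 on the log2 scale. The planned quasi-likelihood count test was not run. No paired analysis was possible because the groups share no replicate numbers. Depth limits Adipoq, Lep, Retn and Cidec, whose highest count in a library was 18 reads.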
